A study of Mus musculus with 36 samples.

Results

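COX1, COX2, COX3, ATP6, ATP8 and CYTB, 6 of the 13 mRNAs of the mouse mitochondrial genome, were followed across extracellular vesicles (EVs), the neural stem cells (NSCs) that released them, and ethanol doses. The members were found by their names, as the count tables write them, and are 6 of 40205 features per library. RNA was sequenced from neurosphere cultures of dorsal telencephalon taken from C57BL/6J fetuses at gestational day 12.5. The labels give the genotype as WT, whereas the study's methods name the breeding stock as carrying the Ai14 reporter allele, in every group alike. Within each of 3 pregnancies (sets 3, 4 and 5), tissue of fetuses of the same sex was pooled, which gave 6 cultures (3F, 3M, 4F, 4M, 5F and 5M). Each culture, at passages 7 to 10, was kept for 5 days in medium without ethanol (control), or with ethanol at 120 mg/dL (26 mM) or at 320 mg/dL (70 mM), with 4 flasks as 1 sample. The conditioned medium gave an EV library and the cell pellet a cell library, so that 18 EV and 18 cell libraries formed 12 groups of 3. The replicates of a group are thus cultures of different pregnancies, while the 3 doses of a culture share their source.

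All 6 genes encode subunits of the respiratory chain or of ATP synthase. COX1, COX2 and COX3 form the catalytic core of cytochrome c oxidase (complex IV), which passes electrons to oxygen. CYTB is a haem-carrying subunit of complex III, and ATP6 and ATP8 belong to the membrane part of ATP synthase (complex V). Mitochondrial DNA is transcribed from both strands as long precursors, which are cut largely at the tRNAs between the genes. The nuclear genome encodes the remaining subunits of complexes III, IV and V. Pieces of mitochondrial DNA have also been copied into nuclear chromosomes, where they can share long identical stretches with the mitochondrial genes.

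The positions of the members bear on how their reads can be counted. On the mitochondrial chromosome of GRCm39 (mm39, 16299 bases, all members on the + strand), COX1 (mt-Co1, ENSMUSG00000064351.1) lies at chrM:5328-6872, COX2 (mt-Co2, ENSMUSG00000064354.1) at chrM:7013-7696 and ATP8 (mt-Atp8, ENSMUSG00000064356.1) at chrM:7766-7969. They are followed by ATP6 (mt-Atp6, ENSMUSG00000064357.1) at chrM:7927-8607, COX3 (mt-Co3, ENSMUSG00000064358.1) at chrM:8607-9390 and, further on, CYTB (mt-Cytb, ENSMUSG00000064370.1) at chrM:14145-15288. Each gene is a single exon without introns. The end of ATP8 and the start of ATP6 share 43 bases, and ATP6 and COX3 share 1. A nuclear copy at chr1:24650616-24655265 (- strand, 4650 bases) matched chrM:6394-11042 with 99.957% identity. It held 100% of COX2, ATP8, ATP6 and COX3, 479 of the 1545 bases of COX1 (31.0%) and 0% of CYTB. Among the 150-base windows of each gene, 100% of those of COX2, ATP8, ATP6 and COX3 occurred letter for letter in the nuclear genome, against 23.64% for COX1 and 0% for CYTB. Among 50-base windows the share was 51.14% for COX1 and unchanged for the other members. The copy differed from the mitochondrial sequence by the substitution T9461C (mitochondrial base first, position counted from 1 on chrM) in the complex I gene ND3, and by 1 inserted base in a tRNA gene, so that it differed from COX2, ATP8, ATP6 and COX3 by no base. The annotation placed 8 features in the copy, 7 pseudogenes and 1 lncRNA, and 0 of the 8 had a row in the count tables.

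The sequences below show where a read can and cannot be told apart from the copy. In the first pair, the end of the copy inside COX1, capitals mark bases that both hold. In the second pair, capitals mark the base of T9461C. The single line after it is the overlap of ATP8 and ATP6, with the start codon of ATP6 and the stop codon of ATP8 in capitals. The last line is the start of CYTB, outside the copy, with the start codon in capitals.
COX1, chrM:6364-6423, + strand: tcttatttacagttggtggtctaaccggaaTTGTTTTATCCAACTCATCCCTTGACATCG
Nuclear copy, chr1:24655236-24655295, - strand: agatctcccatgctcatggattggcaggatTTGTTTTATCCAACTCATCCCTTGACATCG
End of TrnG and start of ND3 (from chrM:9459), chrM:9441-9481, + strand: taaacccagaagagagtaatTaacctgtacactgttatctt
Nuclear copy, chr1:24652178-24652218, - strand: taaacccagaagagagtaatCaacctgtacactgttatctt
ATP8 and ATP6, chrM:7927-7969, + strand: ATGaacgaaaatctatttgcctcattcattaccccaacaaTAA
CYTB, chrM:14145-14204, + strand: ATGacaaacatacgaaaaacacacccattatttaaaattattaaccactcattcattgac

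The libraries differed widely in depth, with 26.6 to 55.3 M counts in cells (M is 1000000 counts; median 37.8 M) and 0.959 to 5.51 M in EVs (median 3.83 M). All 36 pairs of libraries of the same group differed, with no identical pair. The mitochondrial genome, mostly its rRNAs, took 21.3% to 35.4% of the counts in cells and 4.58% to 19.2% in EVs. Markers of neural stem cells and radial glia summed to 2576 to 4103 normalised CPM in cells and 726 to 1312 in EVs, with 7 of 8 above 1 in every cell library and 1 at 0 in all. In cells, markers of neurons and intermediate progenitors (7 genes) summed to 427 to 877, of which Map2 alone had a mean of 619. Of these 7, 4 were above 1 in every cell library. Oligodendrocyte lineage markers (4 genes) summed to 281 to 569, with 3 above 1 in every cell library. Astrocyte markers (3 genes) summed to 14.6 to 232, with 2 above 1 in every cell library. Microglial (4 genes), endothelial (4 genes) and erythroid (2 genes) markers reached at most 0.607, 2.29 and 0.0274. In EVs the same lists summed to 199 to 340, 193 to 402, 10.9 to 130, 0 to 11.7, 1.82 to 15.5 and 0 to 1.70. Normalised CPM are counts per M scaled by TMM, a factor per library that sets most expressed features to a common level.

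The members fell into a well-counted pair and a group of 4 close to 0. In cells, COX1 had 99252 to 335908 counts per library (median 219124) and CYTB 78142 to 171211 (median 117368). In EVs, COX1 had 194 to 3539 counts (median 578) and CYTB 124 to 1755 (median 374). The other 4 members, by contrast, reached at most 11 counts in any of the 36 libraries. COX3, the third core subunit of complex IV, had 76 counts over all 18 cell libraries, with a count in 16 of them and a highest count of 11. COX2, which takes electrons from cytochrome c, had 62 counts in 14 cell libraries, with a highest count of 8. ATP6, the channel subunit of ATP synthase, had 57 counts in 17 cell libraries, with a highest count of 8, and its small partner ATP8 had 27 in 14, with a highest count of 3. In the 18 EV libraries all 4 were listed at 0.

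Set against 673.7 M counts in cells, the sums of these 4 corresponded to 0.113 counts per M for COX3 (95% exact Poisson interval 0.0889 to 0.141), 0.0920 for COX2 (0.0706 to 0.118), 0.0846 for ATP6 (0.0641 to 0.110) and 0.0401 for ATP8 (0.0264 to 0.0583). These intervals cover counting error only. The 58.8 M EV counts, with 0 observed, allow up to 0.0511 per M (3 counts over the group). Per library total, COX3 was therefore at least 2.21-fold lower in EVs, COX2 at least 1.80-fold and ATP6 at least 1.66-fold (1.74-fold, 1.38-fold and 1.26-fold with the lower counting limit of the cell sums), and ATP8 lay below what EVs could show. On the TMM scale the same bounds were 1.23-fold, 1.00-fold and 0.924-fold, and with the same lower limit all were below 1. By these bounds, a lower level of these 4 in EVs could thus not be shown at this depth on the TMM scale. None of the 4 passed the filter on low counts in any comparison, so that 2 of the 6 members, COX1 and CYTB, entered the tests.

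Across the 13 mitochondrial mRNAs, the near-0 genes were those that the copy matches without a difference. The mRNAs with 100% of their 150-base windows in the nuclear genome were COX2, ATP8, ATP6, COX3 and the complex I gene ND4L, and these were the 5 lowest. On the scale of normalised CPM per kilobase, they had medians of 0.0796 (ATP6) to 0.222 (ND4L) in cells. ND3, which carries T9461C and had 98.49% of its windows in the nuclear genome, had a median of 50.7 in cells and 4.67 in EVs. ND4 (59.15% of its windows) had 352 in cells. The part of reads that match more than 1 place in the genome in the low counts was not tested, since how such reads were counted is not given in the sources used here. Levels of COX2, ATP8, ATP6 and COX3 are accordingly levels of what was counted, and cannot be read as levels of those mRNAs.

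**Figure D1:**
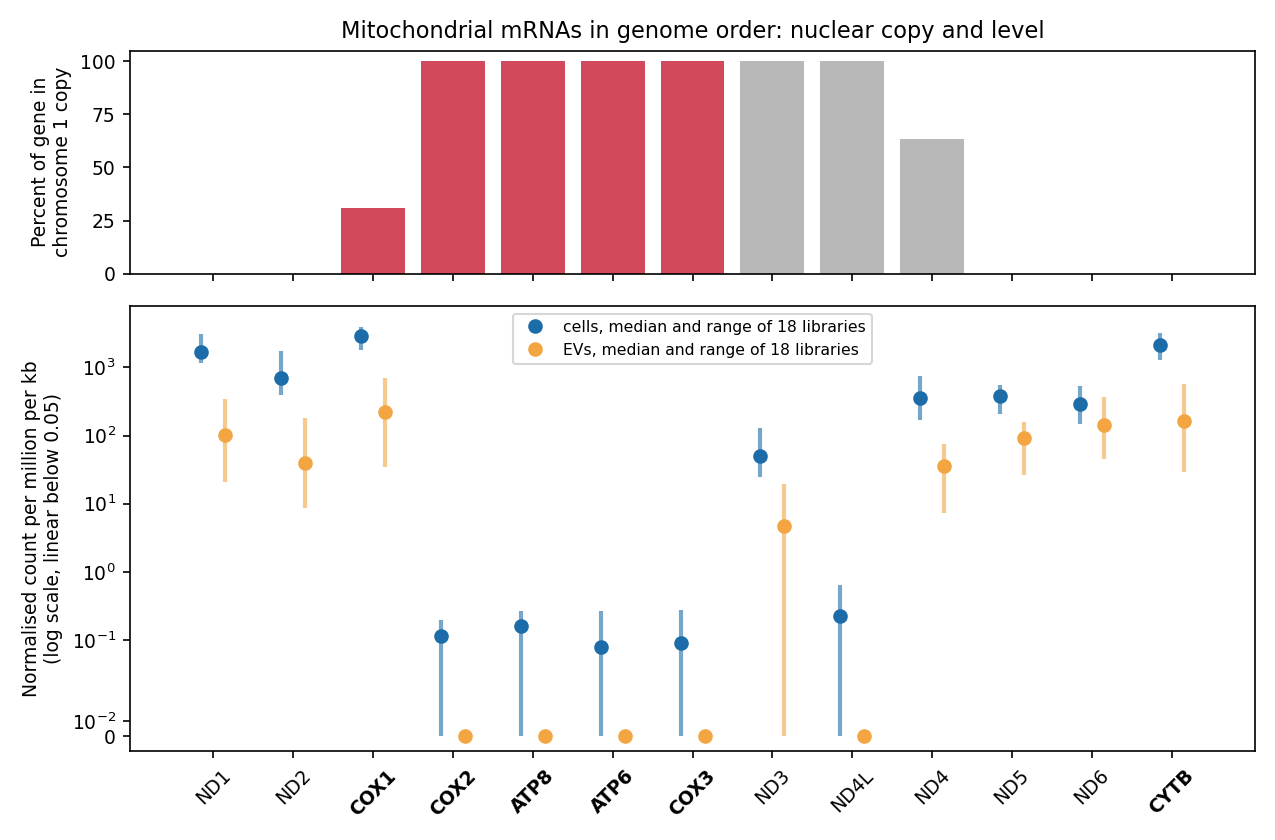
Share of each mitochondrial mRNA in the chromosome 1 copy (top, percent of its bases, COX, ATP and CYTB genes in red) and its level in cells and EVs (bottom, normalised CPM per kilobase, log axis that turns linear below 0.05), with genes in genome order. Points are medians and lines ranges of 18 libraries, and COX2, ATP8, ATP6, COX3 and ND4L sit at or near 0, with all 18 EV libraries at 0.

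Among the 8 mitochondrial mRNAs that were not near 0, COX1 and CYTB had the highest median levels in both sources. The 5 mRNAs near 0 cannot be ranked. The chromosome 1 copy also holds 100% of ND3, 63.57% of ND4 and 31.0% of COX1. Their places in the order are hence those of what was counted. Per kilobase, COX1 led in cells with a median normalised level of 2902 (range 1787 to 3883), followed by CYTB with 2166 (1271 to 3148) and ND1 with 1673. The ranges of these neighbours overlapped. Below them came ND2 with 710, ND5 with 387, ND4 with 352, ND6 with 287 and ND3 with 50.7. In EVs the order was COX1 with 222, CYTB with 163, ND6 with 142, ND1 with 102 and ND5 with 92.7. ND2 with 39.9, ND4 with 35.4 and ND3 with 4.67 came after them, again with overlapping neighbours. ND6 thus stood higher in the order of EVs than in that of cells. It is the only mRNA encoded on the opposite strand, and how strand was used in the counting is not given in the sources used here.

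The level of COX1, in normalised CPM, was 2761 at its lowest, 4484 at the median and 6000 at its highest in the 18 cell libraries, and 52.9, 344 and 1071 in the 18 EV libraries. CYTB was at 1454, 2477 and 3602 in cells and at 33.8, 187 and 653 in EVs. For neither gene did any EV library reach the lowest cell library. The mean level of COX1 was 4483 ± 829.2 (SD, n = 18) in cells and 430 ± 309 (SD, n = 18) in EVs, and that of CYTB was 2453 ± 546 and 246 ± 175. In every one of the 18 pairs of an EV and a cell library of the same culture and dose, both genes were lower in EVs. The fold differed greatly between pairs, from 3.87-fold to 84.0-fold lower for COX1 and from 3.15-fold to 73.3-fold lower for CYTB.

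**Figure D2:**
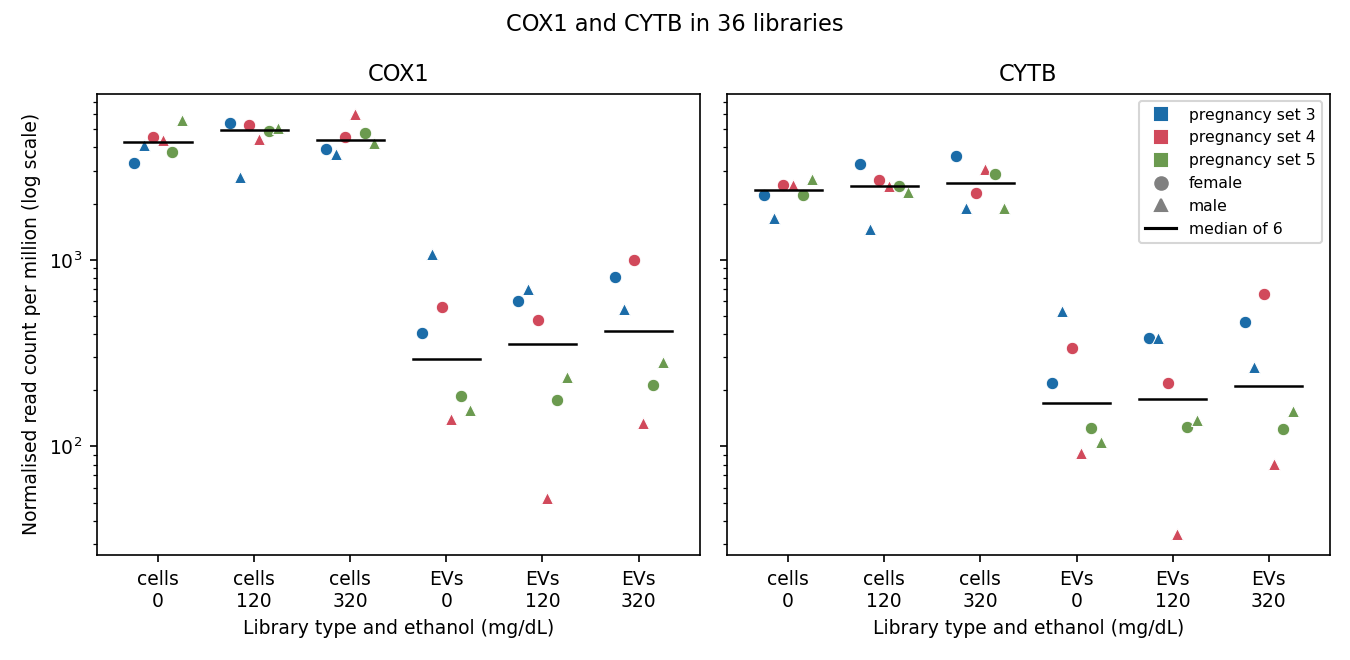
COX1 (left) and CYTB (right) in each of the 36 libraries as normalised CPM on a log axis, by library type and ethanol dose in mg/dL. Colours are the pregnancy sets, circles female and triangles male cultures, and bars the median of 6: EV libraries lie below all cell libraries and are spread over a larger fold, with culture 4M lowest.

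In edgeR's quasi-likelihood test with terms for sex and dose, COX1 was 10.6-fold lower in EVs (log2 fold change -3.41, SE 0.30, Benjamini-Hochberg adjusted p = 1.10e-12) and CYTB 10.2-fold lower (log2 fold change -3.35, SE 0.28, adjusted p = 2.16e-13). The 95% intervals of the log2 fold changes were -4.02 to -2.79 for COX1 and -3.91 to -2.78 for CYTB. Both tested members were called lower, in a comparison in which 80.5% of 15281 tested features were called, 42.2% as lower and 38.4% as higher in EVs. A call alone therefore does not set the members apart, and over all tested features the median log2 fold change was -0.08. These p-values take libraries that share a culture as independent. With counts summed over doses and the 6 cultures as pairs, the log2 fold changes were -4.01 (adjusted p = 5.85e-05) and -3.87 (adjusted p = 2.90e-05). With library totals in place of TMM, the median of all features moved to -0.88, COX1 to -4.16 and CYTB to -4.12, so that the distance of COX1 from the median changed little, from -3.33 to -3.28. Under that scaling 26.9% of the calls were higher in EVs, against 47.6% with TMM. In libraries of pooled RNA, fewer EVs that carry these mRNAs and less of them in each EV cannot be told apart.

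As shares of a library, the 13 mitochondrial mRNAs made up 1.15% to 1.82% of all counts in cells and 0.0165% to 0.232% in EVs, and the 6 members 0.718% to 1.11% and 0.00724% to 0.158%. Within the counts of the 13 mRNAs, the members' median share was 66.1% in cells and 53.0% in EVs. Nearly all of it was COX1 and CYTB. These are shares of what was counted, and cannot be read as shares of the mRNAs.

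The factors by which COX1 and CYTB were lower in EVs lay close together. The ratio of COX1 to CYTB counts was 1.08 at its lowest, 1.92 at the median and 2.47 at its highest in cells, and 1.40, 1.69 and 2.17 in EVs. Per kilobase the medians were 1.42 and 1.25, and 2.06 and 1.81 when the length of COX1 was taken without the bases in the chromosome 1 copy. The log2 ratio differed between EVs and cells by -0.11 over the 6 cultures, and this was not significant in an exact two-sided test over sign changes (p = 0.28125, adjusted p = 0.491 over 11 comparisons of ratios). The smallest p that 6 cultures allow is 0.03125.

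Against other RNAs of the same genome the pair behaved unevenly. COX1 and CYTB together, over the complex I mRNAs ND1, ND2, ND4 and ND5, had a median ratio of 2.04 in cells and 1.37 in EVs (log2 difference -0.38, exact p = 0.21875, adjusted p = 0.491). Over ND6 the ratio was 49.5 in cells and 6.20 in EVs, a 6.19-fold lower value over the cultures, and over both mitochondrial rRNAs it was 0.0336 and 0.00347, an 8.90-fold lower value. Both ratios were lower in EVs in 6 of 6 cultures (exact p = 0.03125, the smallest possible, adjusted p = 0.172). Over 11 comparisons, the smallest possible p passes the adjustment only if most of them reach it. The adjusted p therefore cannot decide on these ratios. Over the 22 tRNAs the ratio was 10.9 in cells and 8.52 in EVs (log2 difference -0.48, exact p = 0.3125, adjusted p = 0.491). Depletion of rRNA during library preparation acts on the rRNA counts, and its part in the rRNA ratio was not tested.

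In the same test, which called 42.2% of all features lower in EVs, the other transcripts of the mitochondrial genome were mostly lower as well. Of the 7 complex I mRNAs, 6 were tested and 6 fell, from -3.82 for ND2 to -0.93 for ND6 on the log2 scale, with -3.33 as their median. Of the 22 tRNAs, 14 were tested and 14 fell, with a median of -4.04, from -4.47 (TrnQ) to -2.36 (TrnP). In the dose comparisons within EVs alone, however, only 7 tRNAs and 5 complex I mRNAs passed the filter on low counts. The others entered the test through their counts in cells, which left little room for any direction but a fall. These lists kept their counts under each of the 4 scalings run. The rRNAs depended on the scaling. The large-subunit rRNA mt-Rnr2 fell by 0.63 on the log2 scale (adjusted p = 0.0389, and 0.0698 with median-of-ratios scaling), and the small-subunit rRNA mt-Rnr1 was at 0.44 (adjusted p = 0.112), which turned to -0.41 with library totals (adjusted p = 0.0957) and to -0.71 with totals outside the mitochondrial genome, where both rRNAs were called lower (adjusted p = 0.00657 for mt-Rnr1).

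Nuclear genes whose products work with the members were lower to a smaller extent. Over all tested features, 42.2% were called lower and 38.4% higher in EVs with TMM. Of the 12 nuclear subunits of complex IV, 11 fell and 1 rose (median log2 fold change -1.22), from -2.09 for Cox7c to 1.02 for Cox7a2l. Of the 9 of complex III, 8 fell and 1 rose (median -1.02), from -2.21 for Uqcrb to 0.53 for the iron-sulfur protein Uqcrfs1. For complex V, 16 of 18 were tested, of which 13 fell and 2 rose (median -0.76), from -2.34 for Atp5l to 2.28 for Atp5a1, the alpha subunit of the catalytic head. With library totals, where 26.9% of all calls were higher, the counts became 11 fallen and 0 risen, 8 and 0, and 14 and 1, in that order. Atp5a1 was higher in EVs under each of the 4 scalings, while Uqcrfs1 turned to -0.23 with library totals and Cox7a2l to -0.02 with totals outside the mitochondrial genome.

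Of 28 assembly factors of complexes III, IV and V, 25 were tested, of which 13 fell and 6 rose, with a median of -0.39. These counts, and those of the 2 lists below, stand beside 42.2% of all tested features called lower and 38.4% called higher. The lowest was Cox20 at -1.85, which helps assemble COX2, and the highest Cox18 at 1.40, which inserts the tail of COX2 into the membrane. Among 23 factors of mitochondrial transcription and RNA handling, 22 were tested, of which 14 fell and 3 rose (median -1.05). The lowest was Taco1 at -3.34, a translational activator of COX1 mRNA, and the highest was the DNA helicase Twnk at 1.61. The 5 regulators of mitochondrial biogenesis had a median of 0.57, with 2 risen and 0 fallen, from -0.08 for Nrf1 to 1.37 for the nuclear receptor Esrra. With library totals, where 26.9% of all calls were higher, these 3 lists had 21 fallen and 2 risen, 20 and 1, and 2 and 1. The fold changes of COX1 and CYTB were thus lower than those of all tested nuclear genes of these lists with TMM, of which Taco1 came closest, whereas with library totals Taco1 (-4.14) was lower than CYTB (-4.12).

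**Figure D3:**
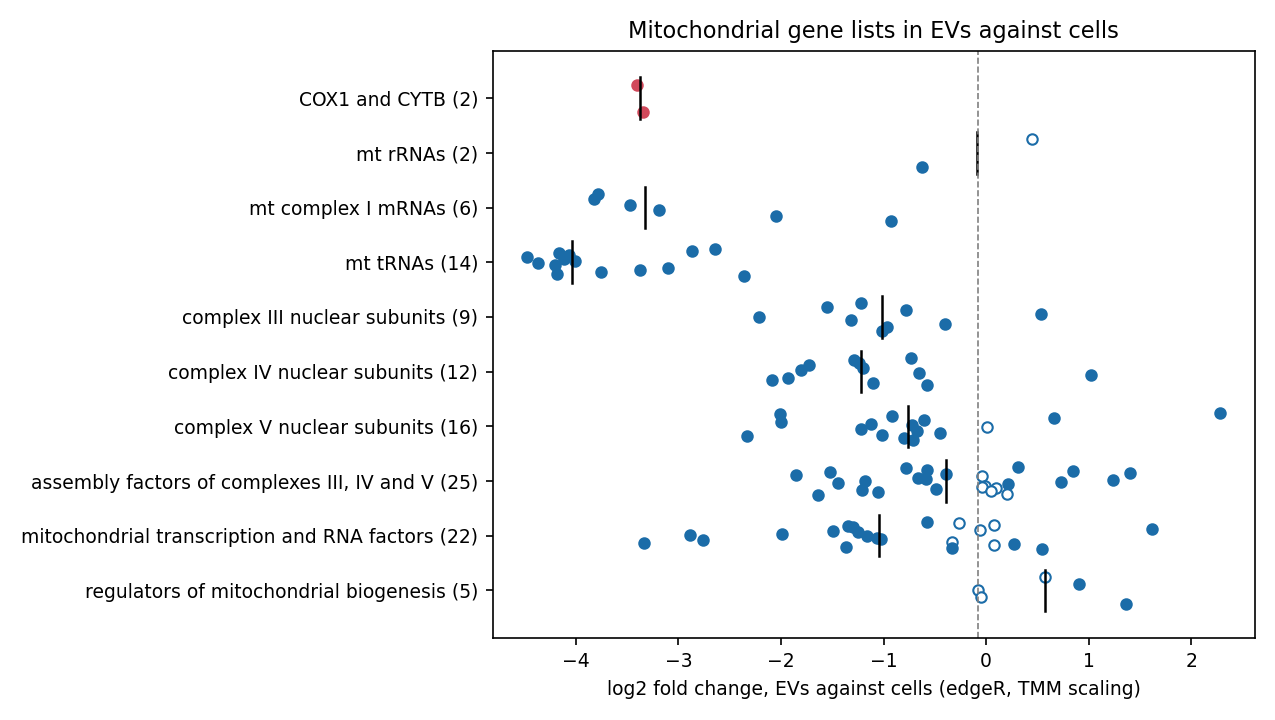
Log2 fold change in EVs against cells for COX1 and CYTB (red) and for each tested gene of the mitochondrial lists (blue), with the number of tested genes in brackets. Filled circles passed an adjusted p of 0.05 and open circles did not, black bars are list medians and the dashed line is the median of all tested features (-0.08): the medians of COX1 and CYTB (red), of the complex I mRNAs and of the tRNAs lie left of all other list medians, while ND6 (-0.93) and TrnP (-2.36) are to the right of Taco1 (-3.34).

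Ethanol was the study's treatment, and the question was whether the dose changed the members in cells, in EVs or in the ratio between them. Neither COX1 nor CYTB passed the threshold at any dose. In cells, COX1 had a lowest, median and highest level of 3284, 4254 and 5630 without ethanol, 2761, 4983 and 5383 at 120 mg/dL and 3694, 4373 and 6000 at 320 mg/dL. CYTB in cells had 1674, 2376 and 2722, then 1454, 2477 and 3241, and then 1885, 2590 and 3602. The ranges of the 3 doses overlapped for both genes.

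In EVs the levels within a dose were spread over a larger fold. COX1 had 140, 295 and 1071 without ethanol, 52.9, 356 and 699 at 120 mg/dL and 134, 415 and 996 at 320 mg/dL. CYTB had 92.8, 171 and 531, then 33.8, 179 and 383, and then 80.2, 211 and 653. The doses overlapped almost wholly.

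With the culture as a block, so that each culture was compared with its own control, the log2 change in cells at 120 mg/dL was 0.10 for COX1 (95% interval -0.22 to 0.41) and 0.04 for CYTB (-0.24 to 0.31). At 320 mg/dL it was 0.08 for COX1 (-0.24 to 0.39) and 0.15 for CYTB (-0.12 to 0.43). In EVs at 120 mg/dL it was -0.21 for COX1 (-0.77 to 0.35) and -0.21 for CYTB (-0.82 to 0.40), and at 320 mg/dL 0.31 (-0.26 to 0.87) and 0.24 (-0.37 to 0.85). The intervals in cells reached no further than 0.43 from 0, and those in EVs reached 0.87. Changes inside these intervals could not be told from 0.

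The larger dose against the smaller gave -0.02 for COX1 and 0.11 for CYTB in cells. In EVs it gave 0.52 for COX1 (-0.04 to 1.08, unadjusted p = 0.0688) and 0.45 for CYTB. COX1 was higher at 320 than at 120 mg/dL in 5 of 6 cultures in EVs and in 2 of 6 in cells. CYTB was higher in 4 of 6 cultures in EVs and in 4 of 6 in cells. The change of the EV:cell ratio from control was -0.34 for COX1 (-1.06 to 0.38) and -0.32 for CYTB at 120 mg/dL, and 0.19 and 0.04 at 320 mg/dL. In each of these 8 contrasts 0 of the 2 tested members were called by edgeR or by DESeq2, and 0 had an unadjusted edgeR p under 0.05. By edgeR, the background was low as well: 0% of tested features were called in cells at 120 mg/dL, 0.0393% in cells at 320 mg/dL, 0.00842% in EVs at 120 mg/dL and 0.0842% in EVs at 320 mg/dL. The contrast of the larger with the smaller dose called 0% in cells and 0% in EVs, and the ratio called 0.0107% at 120 mg/dL and 0% at 320 mg/dL. DESeq2 called more features in most of these contrasts, at most 267 in EVs at 320 mg/dL.

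Individual cultures moved in both directions. For COX1 in EVs, the log2 change at 320 mg/dL from control was 1.00 in 3F, -0.97 in 3M, 0.84 in 4F, -0.07 in 4M, 0.21 in 5F and 0.85 in 5M. For CYTB it was 1.09, -0.999, 0.96, -0.21, -0.02 and 0.56. The cultures 3F and 3M, from the same pregnancy, thus lay at opposite ends for both genes. In cells at 320 mg/dL, COX1 was above its control in 3 of 6 cultures and CYTB in 4 of 6, by at most 0.46 and 0.69 on the log2 scale.

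The ratio of COX1 to CYTB did not depend detectably on ethanol either. Its log2 change was 0.04 in cells at 120 mg/dL (exact p = 0.625), -0.07 at 320 mg/dL (exact p = 0.53125), 0.03 in EVs at 120 mg/dL (exact p = 0.8125) and 0.08 at 320 mg/dL (exact p = 0.28125), with adjusted p-values from 0.491 to 0.8125. The 4 members near 0 had too few counts for a comparison of doses. Summed over 6 cell libraries each at 0, 120 and 320 mg/dL, COX2 had 19, 28 and 15 counts, ATP8 had 12, 9 and 6, ATP6 had 23, 25 and 9, and COX3 had 29, 26 and 21. Of the 126 genes on the lists of mitochondrial RNAs, nuclear subunits and factors, 111 were tested in cells and 99 in EVs, and 0 were called in any ethanol contrast. Over all tested features, 0% to 0.0842% were called in these contrasts, so the count does not set the lists apart.

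**Figure D4:**
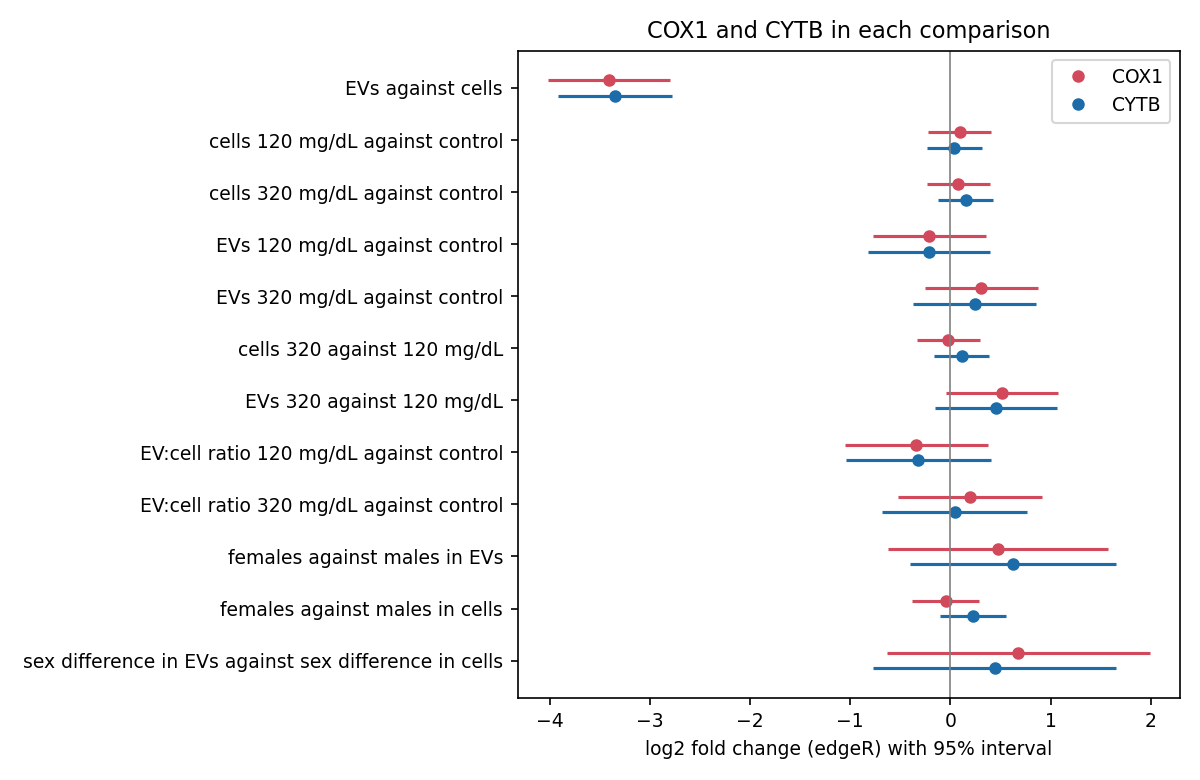
Log2 fold change of COX1 (red) and CYTB (blue) in each comparison, with 95% intervals from edgeR. Values for EVs against cells are -3.41 and -3.35, and the intervals of all ethanol and sex contrasts include 0.

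Female and male cultures were compared within EVs and within cells. In EVs, COX1 was 177 at its lowest, 475 at the median and 996 at its highest in 9 female libraries, and 52.9, 236 and 1071 in 9 male libraries. CYTB was 123, 219 and 653 in female and 33.8, 138 and 531 in male EV libraries. The log2 difference, female minus male, was 0.47 for COX1 (95% interval -0.63 to 1.57, adjusted p = 0.553) and 0.63 for CYTB (-0.40 to 1.66, adjusted p = 0.390) by edgeR, where 11.1% of tested features were called. In cells it was -0.05 (adjusted p = 0.908) and 0.23 (adjusted p = 0.423), where 5.83% of features were called. The sex difference in EVs did not differ significantly from that in cells (0.68, adjusted p = 0.576, and 0.44, adjusted p = 0.712, where 2.11% of features were called).

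The sex difference in EVs rested on the pregnancy. In set 4, COX1 was higher in the female EV library by 1.99, 3.17 and 2.90 on the log2 scale at 0, 120 and 320 mg/dL. In set 3 the same difference was -1.41, -0.22 and 0.56, and in set 5 it was 0.24, -0.42 and -0.40. Without set 3, both genes were called higher in females (COX1 1.39, adjusted p = 0.0489, and CYTB 1.36, adjusted p = 0.0443). That fit called 23.1% of all features and rests on 2 cultures per sex, whose 3 doses are taken as independent libraries. Without set 4 the differences were -0.29 and -0.09 and were not called. All 3 EV libraries of culture 4F held under 2000000 counts (0.975 to 1.55 M) and those of 4M more (4.01 to 4.395 M), so that sex and depth cannot be told apart in set 4. The log2 ratio of COX1 to CYTB was lower in females by 0.27 in cells (exact p = 0.2) and by 0.05 in EVs (exact p = 0.7), where 3 against 3 cultures allow no p below 0.1. Over 9 cell libraries of each sex, female before male, COX2 summed to 28 and 34 counts, ATP8 to 12 and 15, ATP6 to 31 and 26, and COX3 to 33 and 43.

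In EVs, cultures stood apart where doses overlapped. At 0, 120 and 320 mg/dL in that order, COX1 in EVs was at 404, 598 and 808 in culture 3F, 1071, 699 and 547 in 3M, and 556, 475 and 996 in 4F. It was at 140, 52.9 and 134 in 4M, 186, 177 and 215 in 5F, and 157, 236 and 284 in 5M. All libraries of 3F, 3M and 4F were above all of 4M, 5F and 5M. CYTB, with 218 to 653 in the first 3 cultures and 33.8 to 155 in the others, separated in the same way. In cells the cultures overlapped, with COX1 between 2761 and 5383 in set 3, between 4365 and 6000 in set 4 and between 3776 and 5630 in set 5. In the 6 cell libraries each of sets 3, 4 and 5, COX2 summed to 15, 23 and 24 counts, ATP8 to 10, 10 and 7, ATP6 to 16, 22 and 19, and COX3 to 31, 32 and 13.

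In an edgeR test over the 3 pregnancies with terms for sex and dose, COX1 in EVs was past the threshold (log2 difference from set 3 of -1.08 for set 4 and -1.76 for set 5, adjusted p = 0.0483). CYTB was not (-0.98 and -1.56, adjusted p = 0.0641), and 19.7% of features were called. In cells neither gene was called (adjusted p = 0.155 and 0.589), although 40.4% of features were. With counts summed over doses, so that each culture counted once, COX1 in EVs was no longer called (adjusted p = 0.582), in a fit that called 0% of features. The COX1 call was also lost without set 3 (adjusted p = 0.777) and without set 5 (adjusted p = 0.450).

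Depth moved with these levels. The 6 EV libraries under 2000000 counts, which were all 3 of 4F, the control of 3F and 3M at 120 and 320 mg/dL, had COX1 at 404 to 996. Among the 12 deeper EV libraries, the 3 of set 3 had 598 to 1071 and the 9 of sets 4 and 5 had 52.9 to 284. Among these deeper libraries set 4 is culture 4M alone. The limit of 2000000 counts was chosen after seeing the data, and the part of depth in these levels was not tested. Across the 18 EV libraries, which share cultures, the correlation with the log2 of the library total was -0.52 for COX1 and -0.46 for CYTB. In the test over pregnancies, 2 members were called without the 6 EV libraries under 2000000 counts (35.9% of features called), and 0 in libraries thinned to the smallest total (9.86% of features called).

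The pattern of COX1 and CYTB over libraries was described by the correlation of each feature with their mean log2 level, separately in the 18 cell and the 18 EV libraries. COX1 and CYTB correlated with each other at r = 0.99 in EVs and at r = 0.61 in cells. In EVs the complex I mRNA ND1 followed them at r = 0.99, ND4 and ND2 at r = 0.97, ND5 at r = 0.59 and ND6 at r = 0.15. In cells the order was different, with ND5 at r = 0.83, ND4 at r = 0.82, ND6 at r = 0.72, ND2 at r = 0.62 and ND1 at r = 0.41. Outside the mitochondrial genome, the closest features were Sulf2 (r = 0.78), Sspn (r = 0.78) and Scly (r = 0.77) in EVs, and Alpl (r = 0.83), n-THgtg8 (r = 0.83) and Gm41774 (r = 0.82) in cells. The points of each correlation share cultures, library preparation and the spread of depth, and the values are descriptions over 18 libraries.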

How the data were processed

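The authors trimmed and deduplicated reads, aligned the remainder to mm39 with STAR and used HTSeq for counting. The deposited tables hold a whole, unnormalized count for each feature in each library. The submitters' processing notes also name Trimmomatic and DESeq2 2.11.40.6. Libraries were stranded and depleted of rRNA, and how multi-mapped reads and strand were counted is not given in the sources used here. Library totals ranged from 0.959 to 55.3 M counts (M is 1000000), so that members with few counts carry large counting error in EVs.

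Groups came from the labels. Low features were dropped with filterByExpr (at least 10 counts, 15 in total), libraries were scaled by TMM, and quasi-likelihood tests were run in edgeR 4.0.16 (R 4.3.3). Adjusted p-values (Benjamini-Hochberg, over all tested features) under 0.05 were called. The comparison of EVs with cells, and that of pregnancies, carried sex and dose as covariates. Doses were compared with the culture as a block, and sexes with dose as a covariate. Interaction terms tested how dose and sex changed the ratio of EVs to cells. Ratios of genes were tested exactly over the 6 cultures. Alternatives were DESeq2 1.42.0, other scalings, no filter, thinned libraries, counts summed over doses, pairs as blocks, control libraries alone and each pregnancy left out. Scripts were tested on simulated data.

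The nuclear copy was found by aligning chrM to the rest of GRCm39 with blastn 2.17.0, and positions are from GENCODE. The blocks come from the labels, which give culture and pregnancy. In a check, deviations of libraries of the same culture correlated at 0.44 to 0.79 in cells and 0.11 to 0.56 in EVs.

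The rule was to name all 6 members, of which those near 0 are given by summed counts, and a list gene only as the highest or lowest of its list or if called for ethanol. The other mitochondrial mRNAs are named beyond that rule, for their order, their overlap with the copy and their ratios and correlations with the members, with their values known. The lists hold the mitochondrial mRNAs, rRNAs and tRNAs, nuclear subunits, assembly, transcription and RNA factors, biogenesis regulators and cell type markers. The 3 closest features outside the mitochondrial genome were named by correlation (log2 with a prior count of 1). Members and lists were chosen with earlier results of these data known.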

Additional observations from a re-analysis of the deposited data

Results flagged for a closer look

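Among 48 checks for a sample far from the rest of its group, of which chance alone gives about 1 in 20, 3 values stood apart. COX1 in the cell library of culture 3M at 120 mg/dL was 2761 normalised CPM, the lowest of 6, where the next was 4445. The ratio of COX1 to CYTB counts was 1.08 in the cell library of 3F at 320 mg/dL, the lowest of 9 female cell libraries, where the next was 1.48. The same ratio was 2.17 in the EV library of 4F at 120 mg/dL, the highest of 6 EV libraries of set 4, where the next was 1.67.

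Some effects ran in opposite directions in every culture or library of the groups compared, and these differences were not tested. In cells, CYTB at 120 mg/dL moved from control by a mean of -0.16 on the log2 scale in the 3 male cultures (-0.24 to -0.03) and by 0.26 in the 3 female cultures (0.08 to 0.54). The log2 ratio of COX1 to CYTB in cells, female minus male, had a mean over doses of -0.60 in set 3 (-0.85 to -0.19), 0.0721 in set 4 (0.02 to 0.13) and -0.29 in set 5 (-0.44 to -0.16).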

How the results depend on the processing

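The lower level of COX1 and CYTB in EVs kept its direction and its call under 13 alternatives each, with log2 fold changes from -4.52 to -2.93 for COX1 and from -4.47 to -2.85 for CYTB. With matched EV and cell libraries taken as pairs (a replicate block), it was -3.75 and -3.64, and the block changed no call of a member in any comparison. Without the filter on low counts, 5 members were called in EVs against cells, adding ATP6, COX2 and COX3, which were all at 0 in EVs. DESeq2 called neither these 3 nor ATP8, and gave fitted log2 fold changes of 0.09 to 1.67, of the opposite sign, so these fits bound nothing. No member was called for ethanol under any alternative, with each pregnancy left out included. For sex in EVs, between 0 and 2 members were called with 1 pregnancy left out at a time, the 2 without set 3. For pregnancies in EVs, where 1 member was called, 2 were called with DESeq2, with library totals, with totals outside the mitochondrial genome, without the filter and without the EV libraries under 2000000 counts, an alternative chosen after seeing the data. There, 0 were called with median-of-ratios scaling (COX1 adjusted p = 0.0520), in thinned libraries and with summed doses, and 0 to 2 with 1 pregnancy left out at a time. The cause was not tested, beyond fewer cultures or libraries in the last of these. For sex in cells, pregnancies in cells, and EVs against cells in their sex difference, 0 members were called throughout. Depth limits the statements on COX2, ATP8, ATP6 and COX3 in EVs, where 0 counts in 18 libraries allow up to 0.0511 per M. Over all features DESeq2, without the filter of edgeR, called more, except for the EV:cell ratio at 120 mg/dL (2 by each): 23256 against 12302 features in EVs against cells, 94 against 7 in cells and 267 against 10 in EVs at 320 mg/dL, 4 against 0 in cells and 13 against 1 in EVs at 120 mg/dL, and 60 against 0 for the EV:cell ratio at 320 mg/dL. For 320 against 120 mg/dL it called 3 against 0 in cells and 2 against 0 in EVs. For sex it called 2789 against 1224 in EVs, 2071 against 994 in cells and 1250 against 367 for the difference between them.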
